A study of Homo sapiens with 6 samples.

Results

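The genes described here encode solute carrier (SLC) transporters of the plasma membrane and of organelle membranes, measured in 786-O cells after knockdown of ALYREF. Members were all genes whose symbol starts with SLC, a family number, the letter A and a further number, without the mitochondrial SLC25 carriers, SLC2A1 and SLC7A11. The rule found 136 genes among the 11679 genes of the deposited tables, and their measured changes played no part in it. Of the 136, 128 encode transporters or their subunits. The other 8 only share the naming pattern: 2 antisense RNAs, 5 regulators or neighbours, and 1 pseudogene. RefSeq lists 301 protein-coding symbols that meet the rule, of which 130 had a row in the tables, and the rest were not analysed here.

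SLC transporters move nutrients, ions, metals and vitamins across membranes without splitting ATP themselves. Many use the sodium, proton or chloride gradients that the sodium-potassium pump and other transporters maintain, and several work as heteromers, such as the amino acid exchanger of SLC7A5 with the heavy chain SLC3A2. The renal tubule, from which clear cell renal carcinoma arises, is rich in transporters for sugars, amino acids, bicarbonate and organic ions. In tumour cells of this kind, hexose uptake, lactate export, amino acid exchange and bicarbonate uptake accompany a glycolytic metabolism.

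The 786-O line is a human clear cell renal carcinoma line. Cells were transfected with ALYREF siRNA5, ALYREF siRNA8 or a non-targeting siRNA (NTC), 2 libraries for each, grown in RPMI with 10% FBS under 5% carbon dioxide, and harvested 48 h after transfection. ALYREF couples the packaging of mRNA in the nucleus to its export. Each siRNA was compared with the same 2 NTC libraries, and all samples used here are of 1 cell line, with no rescue.

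The deposited tables hold results of the authors' DESeq2 fit, with no value per library and no depth per library: for each gene a mean normalized count over the libraries, and per siRNA a log2 fold change over NTC with its standard error (SE) and adjusted p. A level per group was therefore rebuilt from the mean and both fold changes, on the assumption that the mean covers 3 groups of equal size. It has no error of its own, and the SE of the fold change stands in its place. Duplicates are not stated to be separate cultures, so the tests set each change against a spread between libraries that may be technical alone. Genes with an adjusted p under 0.05 were called, and every value after ± is the SE of the log2 change before it (2 libraries against 2). In RNA from a whole culture, a change in some cells cannot be told apart from a smaller change in all cells. ALYREF fell to 5.67% of the NTC level with siRNA5 and to 7.83% with siRNA8, per the authors' deposited tables. Of the 10 renal epithelial markers looked for, 8 had rows, while LRP2 and CUBN had none. PAX8, a renal transcription factor, had a mean of 2354 normalized counts, VIM, vimentin, had 53094, and ANPEP had only 182, per the authors' deposited tables. None of the 5 immune or 4 endothelial markers had a row.

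Transporter genes moved in both directions, and the median member lay close to the NTC level with either siRNA. With siRNA5, 39 members were higher and 32 lower than with NTC by the adjusted p-values of the authors' deposited table, where 24.4% and 22.0% of all genes were higher and lower. With siRNA8, 29 were higher and 40 lower by the adjusted p-values of the authors' deposited table, where 21.0% and 20.5% of all genes were. Members called in either direction made up 52.2% with siRNA5, against 46.4% of all genes, and 50.7% with siRNA8, against 41.5% of all genes. The median log2 change of the members was 0.01 with siRNA5 and -0.03 with siRNA8, per the authors' deposited tables, and the medians of all genes were 0.01 and 0.01. Most called changes were under 2-fold: the median size among called members was 0.57 on the log2 scale with siRNA5 and 0.51 with siRNA8, per the authors' deposited tables. A change of at least 2-fold was called for 5 higher and 4 lower members with siRNA5 and for 3 higher and 8 lower members with siRNA8, per the authors' deposited tables, where 1.65%, 3.11%, 1.57% and 2.74% of all genes met these 4 criteria. Most of these members had a mean under 100. Among the 96 members with a mean of 100 or more, the counts were 2, 1, 1 and 4, where 107, 171, 80 and 155 of the 9357 genes with such a mean met the criteria. With both siRNAs, 20 members were called higher and 18 lower, against 9.85% and 8.76% of all genes, and 9 were called in opposite directions, against 5.87% of all genes. Both comparisons use the same NTC libraries, so these counts are not independent of each other.

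**Figure D1:**
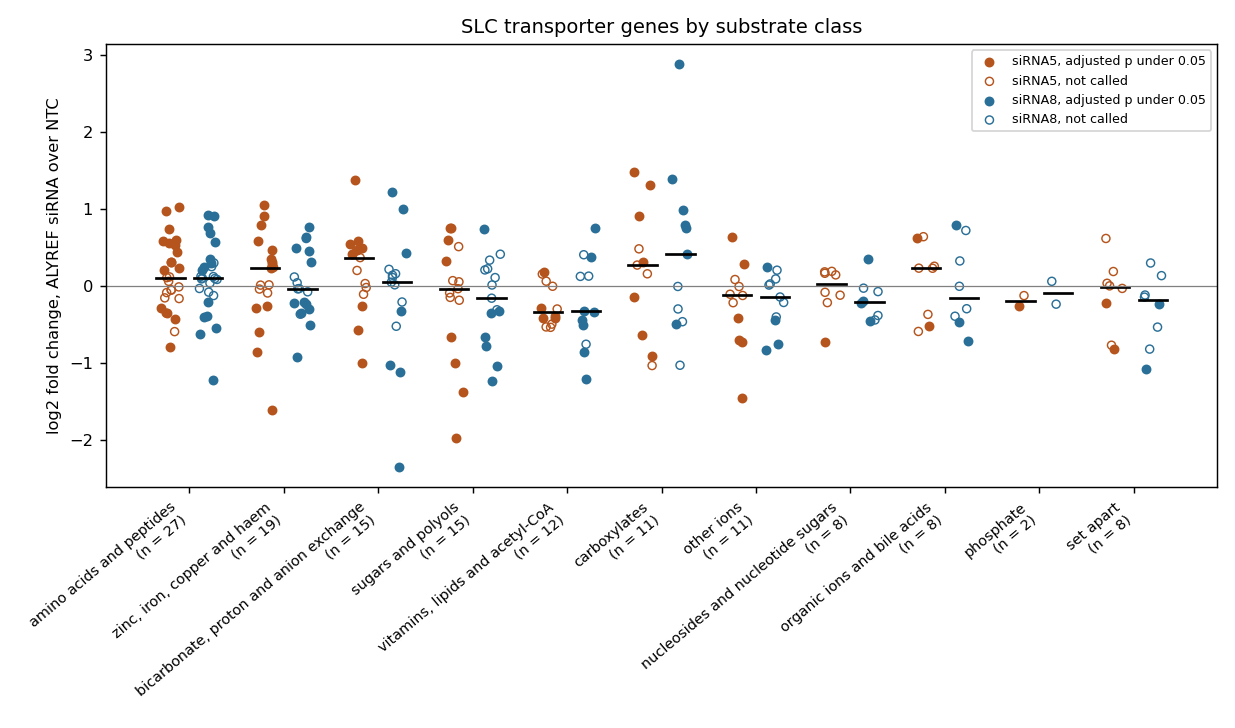
Log2 fold change over NTC of each of the 136 members, grouped by the substrate class of its SLC family, with siRNA5 on the left and siRNA8 on the right of each class. Filled points were called at an adjusted p under 0.05, open points were not, and black bars are class medians. The class medians of vitamin and lipid transporters are -0.34 and -0.33 with siRNA5 and siRNA8, and the highest point is SLC16A4 with siRNA8 at 2.88 ± 0.45.

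The most abundant members carry amino acids. Per kb of transcript, SLC7A5, the light chain that imports leucine and other large neutral amino acids, had a mean level of 3590.1 normalized counts, its heavy chain SLC3A2 2611, and SLC1A5, a glutamine transporter, 1650.5. SLC16A3, the lactate exporter of glycolytic cells, came next with 1477 per kb, then SLC39A1, a zinc importer, with 1106 and SLC43A3, a nucleobase transporter, with 1038. These levels rest on the length of 1 annotated transcript per gene and carry no error, so SLC43A3 and SLC20A1, a phosphate importer with 1027 per kb, are not ranked against each other. Over all members the mean normalized count ran between 12.5 for SLC16A13 and 16288 for SLC7A5, with a median of 320.0, against 459 over all genes. The 40 members with a mean under 100 had a median SE of 0.312 on the log2 scale with siRNA5, against 0.0974 for the 96 with a mean of 100 or more, so that small changes among them were not detectable.

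**Figure D2:**
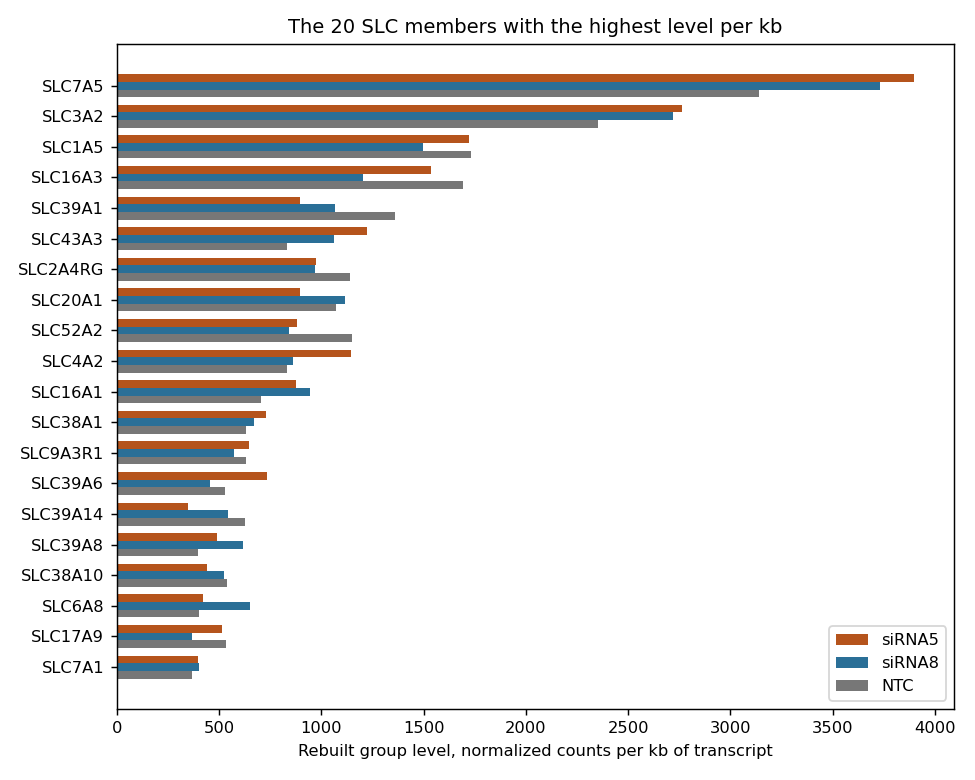
Rebuilt group level of the 20 members with the highest mean per kb of transcript, in normalized counts per kb, with bars for siRNA5, siRNA8 and NTC from top to bottom. SLC7A5 and SLC3A2 lead in all 3 groups, and both are higher with either siRNA than with NTC. No error bar is drawn because the tables hold no value per library.

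SLC4A7 had the largest rise with both siRNAs among members with a mean of 100 or more. SLC4A7 carries sodium and bicarbonate into the cell together and so raises the pH of the cytosol. Its rebuilt level was 1229.5 with siRNA5, 1107 with siRNA8 and 473 with NTC, in normalized counts. It rose by 1.38 ± 0.082, or 2.60-fold, with siRNA5 and by 1.23 ± 0.082, or 2.34-fold, with siRNA8 on the log2 scale, per the authors' deposited tables, with adjusted p-values of 2.73e-61 and 1.55e-48. Both siRNA groups thus lay well above NTC, and the difference between them of 0.15 ± 0.12 on the log2 scale did not pass its test (adjusted p = 0.344).

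Of the other bicarbonate transporters, SLC4A2 and SLC4A4 rose with siRNA5, and more than with siRNA8 in a test of the difference. SLC4A2, which exchanges chloride for bicarbonate and is the most abundant SLC4 gene here, had rebuilt levels of 5637 with siRNA5, 4229 with siRNA8 and 4086 with NTC. It rose by 0.46 ± 0.048 on the log2 scale with siRNA5 and had a change of 0.05 ± 0.048 (adjusted p = 0.433) with siRNA8, per the authors' deposited tables. SLC4A4, the electrogenic sodium bicarbonate cotransporter of the proximal tubule, rose by 0.58 ± 0.093 with siRNA5 and had an uncalled log2 change of 0.11 ± 0.095 (adjusted p = 0.360) with siRNA8, per the authors' deposited tables. The log2 change was higher with siRNA5 than with siRNA8 by 0.41 ± 0.068 for SLC4A2 (adjusted p = 1.67e-08) and by 0.47 ± 0.13 for SLC4A4 (adjusted p = 0.00206). SLC4A8, a sodium-driven chloride bicarbonate exchanger with a mean of only 35.2, had rebuilt levels of 57.3 with siRNA5, 7.92 with siRNA8 and 40.4 with NTC and had an uncalled log2 change of 0.50 ± 0.35 (adjusted p = 0.241) with siRNA5, while it fell by 2.35 ± 0.52 with siRNA8, per the authors' deposited tables. SLC4A3, a chloride bicarbonate exchanger, fell by 0.57 ± 0.21 with siRNA5 and had an uncalled log2 change of 0.02 ± 0.20 (adjusted p = 0.959) with siRNA8, per the authors' deposited tables.

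Among sodium-proton exchangers, which extrude acid, SLC9A3 fell with both siRNAs. SLC9A3, the exchanger of the apical tubule membrane, had a mean of 72.6 and fell by 1.00 ± 0.25 with siRNA5 and by 1.11 ± 0.25 with siRNA8, per the authors' deposited tables. Its exons share 34.5% of their bases with PP7080 on the same strand, which had log2 changes of -0.70 with siRNA5 and -0.54 with siRNA8, per the authors' deposited tables. Reads from the shared bases could not be assigned to either gene here. Among anion exchangers, the sulfate transporter SLC26A2 had rebuilt levels of 1941 with siRNA5, 1779.7 with siRNA8 and 1324 with NTC, and rose by 0.55 ± 0.073 and 0.43 ± 0.073 on the log2 scale with siRNA5 and siRNA8, per the authors' deposited tables. SLC26A1, another sulfate transporter, rose by 0.50 ± 0.21 with siRNA5 and fell by 1.03 ± 0.25 with siRNA8, per the authors' deposited tables. Its locus overlaps IDUA on the opposite strand over 3.44% of its exonic bases. Over the 15 genes of bicarbonate, proton and anion exchange, siRNA5 gave 6 higher, 3 lower and 6 uncalled genes (of all genes, 24.4% were higher and 22.0% lower) with a median log2 change of 0.37, and siRNA8 gave 3 higher, 4 lower and 8 uncalled genes (of all genes, 21.0% and 20.5%) with a median of 0.05, per the authors' deposited tables.

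Amino acid transporter families moved in both directions. Over the 27 genes of these families, which include SLC43A3 (nucleobases), SLC17A5 (sialic acid) and SLC17A9 (ATP), siRNA5 gave 12 higher, 4 lower and 11 uncalled genes (of all genes, 24.4% were higher and 22.0% lower) with a median log2 change of 0.11, and siRNA8 gave 9 higher, 6 lower and 12 uncalled genes (of all genes, 21.0% and 20.5%) with a median of 0.10, per the authors' deposited tables. The exchanger pair moved together: SLC7A5 had rebuilt levels of 17689 with siRNA5, 16928 with siRNA8 and 14248 with NTC, and SLC3A2 had 5969 with siRNA5, 5874 with siRNA8 and 5084 with NTC. SLC7A5 rose by 0.31 ± 0.049 and 0.25 ± 0.049 on the log2 scale, and SLC3A2 by 0.23 ± 0.049 and 0.21 ± 0.049, with siRNA5 and siRNA8, per the authors' deposited tables. SLC7A6, another light chain that pairs with SLC3A2, fell by 0.36 ± 0.078 and 0.62 ± 0.079 with siRNA5 and siRNA8, per the authors' deposited tables. The exons of SLC7A6 share 53.0% of their bases with SLC7A6OS on the opposite strand, which was not called with either siRNA. SLC7A2, an importer of arginine and lysine with a mean of only 98.9, had log2 changes of 1.02 ± 0.25 with siRNA5, which was called, and 0.25 ± 0.26 (adjusted p = 0.466) with siRNA8, per the authors' deposited tables. SLC7A7, the light chain for cationic amino acids at the basolateral membrane, had an uncalled log2 change of -0.15 ± 0.16 (adjusted p = 0.452) with siRNA5 and rose by 0.77 ± 0.15 with siRNA8, per the authors' deposited tables.

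SLC1A4, SLC38A2 and SLC1A5, sodium-dependent transporters of neutral amino acids, were higher with siRNA5 than with siRNA8. SLC1A5 had rebuilt levels of 4959.6 with siRNA5, 4313 with siRNA8 and 4997 with NTC, and its log2 change with siRNA5 was -0.01 ± 0.049 (adjusted p = 0.879), while it fell by 0.21 ± 0.050 with siRNA8, per the authors' deposited tables. SLC38A2, a sodium-coupled importer induced in starved cells, had 2196 with siRNA5, 1768 with siRNA8 and 1623 with NTC, and rose by 0.44 ± 0.075 with siRNA5 with an uncalled log2 change of 0.12 ± 0.076 (adjusted p = 0.191) with siRNA8, per the authors' deposited tables. Its relative SLC38A1 rose by 0.21 ± 0.051 with siRNA5 and had 0.09 ± 0.051 (adjusted p = 0.174) with siRNA8, and SLC1A4, an alanine and serine exchanger, rose by 0.53 ± 0.076 with siRNA5 and had -0.08 ± 0.078 (adjusted p = 0.441) with siRNA8, all as log2 changes, per the authors' deposited tables. The arginine and lysine importer SLC7A1 had log2 changes of 0.11 ± 0.060 (adjusted p = 0.124) and 0.12 ± 0.059 (adjusted p = 0.0804) with siRNA5 and siRNA8, per the authors' deposited tables. SLC1A4 and SLC38A2 were higher with siRNA5 than with siRNA8 by 0.61 ± 0.11 and 0.31 ± 0.11 in log2 units (adjusted p = 3.64e-07 and 0.0136 for the difference). In the same test SLC1A5 was higher with siRNA5 by 0.20 ± 0.070 (adjusted p = 0.0153), whereas the difference for SLC38A1 was 0.12 ± 0.073 (adjusted p = 0.192).

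SLC17A5, SLC36A1 and SLC15A4, all of lysosomes, rose with both siRNAs, while SLC48A1, a haem transporter also found there, fell with both. SLC17A5, which exports sialic acid from lysosomes, had rebuilt levels of 190.3 with siRNA5, 183 with siRNA8 and 96.4 with NTC, and rose by 0.98 ± 0.18 and 0.92 ± 0.18 on the log2 scale with siRNA5 and siRNA8, per the authors' deposited tables. SLC36A1, a proton-coupled exporter of small amino acids, rose by 0.74 ± 0.16 and 0.58 ± 0.16, and SLC15A4, a peptide and histidine transporter, by 0.60 ± 0.096 and 0.30 ± 0.097, with siRNA5 and siRNA8, per the authors' deposited tables. The lysosomal amino acid sensor SLC38A9 was not called, with log2 changes of -0.16 ± 0.22 and -0.12 ± 0.22, per the authors' deposited tables. Of other members at lysosomes, SLC2A6 had log2 changes of 0.07 ± 0.11 and -1.23 ± 0.12 and SLC37A3 of 0.60 ± 0.12 and -0.79 ± 0.14 with siRNA5 and siRNA8, per the authors' deposited tables. SLC48A1, with a mean of 42.8, fell by 1.61 ± 0.38 and 0.92 ± 0.33 with siRNA5 and siRNA8, per the authors' deposited tables. SLC38A7 was not called, with log2 changes of -0.08 ± 0.12 and 0.10 ± 0.12, per the authors' deposited tables. These lysosomal genes were put side by side after their values were seen, and members at lysosomes were not listed in full. SLC43A3 rose by 0.56 ± 0.052 and 0.36 ± 0.052, and SLC43A2, a transporter of branched-chain amino acids and phenylalanine, fell by 0.43 ± 0.19 and 1.22 ± 0.20, with siRNA5 and siRNA8, per the authors' deposited tables. SLC17A9, which loads ATP into vesicles, had an uncalled log2 change of -0.05 ± 0.056 (adjusted p = 0.464) with siRNA5 and fell by 0.54 ± 0.058 with siRNA8, per the authors' deposited tables.

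Monocarboxylate transporters diverged from each other. SLC16A1, which carries lactate in either direction, had rebuilt levels of 3836 with siRNA5, 4129 with siRNA8 and 3082 with NTC. It rose by 0.32 ± 0.049 and 0.42 ± 0.048 on the log2 scale with siRNA5 and siRNA8, per the authors' deposited tables. SLC16A3, the more abundant of both by mean level per kb, had 7426 with siRNA5, 5813 with siRNA8 and 8169.8 with NTC, and fell by 0.14 ± 0.049 and 0.49 ± 0.049, per the authors' deposited tables. The fall of SLC16A3 was deeper with siRNA8, with a difference of 0.35 ± 0.069 in log2 units (adjusted p = 3.15e-06 in the test of the difference). Rarer members of the family had large fold changes. SLC16A6, linked to ketone body transport, had 40.8 with siRNA5, 43.2 with siRNA8 and 16.4 with NTC, and rose by 1.31 ± 0.39 and 1.40 ± 0.38 on the log2 scale, per the authors' deposited tables. SLC16A4 had 22.9 with siRNA5, 60.7 with siRNA8 and 8.23 with NTC, and rose by 1.48 ± 0.48 and 2.88 ± 0.45, per the authors' deposited tables. With so low a level with NTC, SLC16A4 may have a row in the tables only because of its level with the siRNAs. Over the 10 SLC16 genes, siRNA5 gave 4 higher, 3 lower and 3 uncalled genes (of all genes, 24.4% were higher and 22.0% lower) with a median log2 change of 0.24, and siRNA8 gave 5 higher, 1 lower and 4 uncalled genes (of all genes, 21.0% and 20.5%) with a median of 0.21, per the authors' deposited tables. The other carboxylate transporter, SLC13A3, which takes up dicarboxylates with sodium, had a log2 change of 0.27 ± 0.30 (adjusted p = 0.485) with siRNA5 and rose by 0.79 ± 0.29 with siRNA8, per the authors' deposited tables.

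Among hexose transporters, SLC2A3 rose with both siRNAs. SLC2A3 is a high-affinity glucose importer with a close copy, SLC2A14, and the counting could have split or lost reads shared by both. Its rebuilt levels were 506 with siRNA5, 501 with siRNA8 and 299 with NTC, and it rose by 0.76 ± 0.12 and 0.75 ± 0.12 on the log2 scale with siRNA5 and siRNA8, per the authors' deposited tables. SLC2A13, a proton-coupled inositol importer, had 303 with siRNA5, 160.3 with siRNA8 and 179 with NTC, and rose by 0.76 ± 0.14 with siRNA5 with an uncalled log2 change of -0.16 ± 0.15 (adjusted p = 0.413) with siRNA8, per the authors' deposited tables. SLC2A6, a transporter of lysosomal membranes, had 646 with siRNA5, 262 with siRNA8 and 615 with NTC. It had an uncalled log2 change of 0.07 ± 0.11 (adjusted p = 0.646) with siRNA5 and fell by 1.23 ± 0.12 with siRNA8, with an adjusted p of 8.72e-22, per the authors' deposited tables. SLC2A8, an intracellular hexose transporter, rose by 0.32 ± 0.10 with siRNA5 and fell by 0.35 ± 0.11 with siRNA8, per the authors' deposited tables.

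SLC5A3 and SLC45A3 fell with siRNA5. SLC5A3, which takes up inositol with sodium as an osmolyte, had rebuilt levels of 366 with siRNA5, 627 with siRNA8 and 581 with NTC. It fell by 0.67 ± 0.10 with siRNA5 and had an uncalled log2 change of 0.11 ± 0.094 (adjusted p = 0.365) with siRNA8, per the authors' deposited tables. SLC5A3 shares 176 exonic bases with MRPS6 on the same strand, which was not called with siRNA5 and changed by 0.31 on the log2 scale with siRNA8, per the authors' deposited tables. SLC45A3 had 98.7 with siRNA5, 230.3 with siRNA8 and 197 with NTC, and fell by 1.00 ± 0.18 with siRNA5 with an uncalled log2 change of 0.22 ± 0.15 (adjusted p = 0.248) with siRNA8, per the authors' deposited tables. SLC37A4, which carries glucose 6-phosphate into the endoplasmic reticulum, had an uncalled log2 change of -0.09 ± 0.13 (adjusted p = 0.601) with siRNA5 and fell by 0.66 ± 0.13 with siRNA8, per the authors' deposited tables. SLC45A4, with a mean of 83.2, fell by 1.38 ± 0.26 and 1.04 ± 0.25 with siRNA5 and siRNA8, per the authors' deposited tables. SLC5A6, a multivitamin transporter grouped here by its family, had a log2 change of -0.03 ± 0.074 (adjusted p = 0.736) with siRNA5 and fell by 0.32 ± 0.074 with siRNA8, per the authors' deposited tables. Over the 15 genes of the sugar and polyol families, SLC5A6 among them, siRNA5 gave 4 higher, 4 lower and 7 uncalled genes (of all genes, 24.4% were higher and 22.0% lower) with a median log2 change of -0.03, and siRNA8 gave 1 higher, 6 lower and 8 uncalled genes (of all genes, 21.0% and 20.5%) with a median of -0.16, per the authors' deposited tables.

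Zinc transporters formed a group in which exporters and importers both moved. Most SLC30 proteins, though not all, move zinc out of the cytosol, across the plasma membrane or into organelles, and SLC39 proteins move it in. With siRNA5, 4 of the 5 SLC30 genes rose and 1 fell, and with siRNA8, 2 rose and 1 fell, per the authors' deposited tables, where 24.4% and 22.0% of all genes rose and fell with siRNA5 and 21.0% and 20.5% with siRNA8. SLC30A7, which fills the Golgi with zinc, had rebuilt levels of 760.5 with siRNA5, 748 with siRNA8 and 441 with NTC, and rose by 0.79 ± 0.087 and 0.76 ± 0.086 on the log2 scale with siRNA5 and siRNA8, per the authors' deposited tables. SLC30A9 rose by 0.29 ± 0.067 and 0.32 ± 0.066, and SLC30A6, a subunit of a zinc transporter of the early secretory pathway, fell by 0.28 ± 0.083 and 0.23 ± 0.082, with siRNA5 and siRNA8, per the authors' deposited tables. SLC30A5, the partner of SLC30A6, rose by 0.23 ± 0.085 with siRNA5 and had an uncalled log2 change of 0.04 ± 0.085 (adjusted p = 0.726) with siRNA8, per the authors' deposited tables. SLC30A1, the zinc exporter of the plasma membrane, rose by 1.05 ± 0.27 with siRNA5 and had an uncalled log2 change of 0.62 ± 0.28 (adjusted p = 0.0586) with siRNA8, per the authors' deposited tables. At a mean of 184 its SE of 0.27 with siRNA5 exceeded the 0.16 of SLC31A2, a member of like level with a mean of 191, per the authors' deposited tables.

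The zinc importers split. SLC39A1 and SLC39A3, importers of the plasma membrane, fell with both siRNAs, SLC39A1 by 0.60 ± 0.053 and 0.35 ± 0.052 and SLC39A3 by 0.26 ± 0.10 and 0.30 ± 0.10 on the log2 scale, per the authors' deposited tables. SLC39A14, which also takes up manganese and iron, had rebuilt levels of 1608 with siRNA5, 2518 with siRNA8 and 2907 with NTC. It fell by 0.85 ± 0.059 and 0.21 ± 0.056, per the authors' deposited tables, and the fall was deeper with siRNA5, with a difference of -0.65 ± 0.081 in log2 units (adjusted p = 4.28e-14 in the test of the difference). SLC39A10 had 1760.3 with siRNA5, 1288 with siRNA8 and 939.9 with NTC, and rose by 0.91 ± 0.12 and 0.45 ± 0.12 with siRNA5 and siRNA8, per the authors' deposited tables. At a mean of 1329 its SE of 0.12 with siRNA5 exceeded the 0.067 of SLC30A9, a member of like level with a mean of 1365, per the authors' deposited tables. SLC39A6, known to form a heteromer with SLC39A10, had 2599 with siRNA5, 1607 with siRNA8 and 1872 with NTC, and rose by 0.47 ± 0.055 with siRNA5 but fell by 0.22 ± 0.057 with siRNA8, per the authors' deposited tables. SLC39A8, an importer of zinc, manganese and cadmium, rose by 0.31 ± 0.060 and 0.64 ± 0.058, and SLC39A11 by 0.35 ± 0.14 and 0.49 ± 0.13, with siRNA5 and siRNA8, per the authors' deposited tables.

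For copper, SLC31A1, the high-affinity importer, had an uncalled log2 change of 0.01 ± 0.068 (adjusted p = 0.905) with siRNA5 and fell by 0.51 ± 0.071 with siRNA8, per the authors' deposited tables. The haem transporter SLC48A1, with a mean of 42.8, fell by 1.61 ± 0.38 and 0.92 ± 0.33 with siRNA5 and siRNA8, and the iron and manganese importer SLC11A2 was not called with either siRNA, with log2 changes of -0.04 ± 0.10 and 0.12 ± 0.10, per the authors' deposited tables. Over the 19 genes of zinc, iron, copper and haem, siRNA5 gave 9 higher, 5 lower and 5 uncalled genes (of all genes, 24.4% were higher and 22.0% lower) with a median log2 change of 0.23, and siRNA8 gave 5 higher, 7 lower and 7 uncalled genes (of all genes, 21.0% and 20.5%) with a median of -0.04, per the authors' deposited tables.

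SLC8A1 had the deepest fall with siRNA5 among members with a mean of 100 or more. It encodes the plasma membrane exchanger of sodium for calcium, and its rebuilt levels were 109 with siRNA5, 167 with siRNA8 and 298 with NTC. It fell by 1.46 ± 0.17, or 2.74-fold, with siRNA5 and by 0.83 ± 0.15, or 1.78-fold, with siRNA8 on the log2 scale, per the authors' deposited tables, and the difference of -0.62 ± 0.23 passed its test (adjusted p = 0.0224). Among cation-chloride cotransporters, which set cell volume and chloride, SLC12A2 imports sodium, potassium and chloride and fell by 0.41 ± 0.097 with siRNA5, with an uncalled log2 change of -0.21 ± 0.094 (adjusted p = 0.0561) with siRNA8, per the authors' deposited tables. SLC12A4, which exports potassium with chloride, rose by 0.64 ± 0.089 and 0.25 ± 0.091 with siRNA5 and siRNA8, per the authors' deposited tables. SLC12A9, an orphan of the family, fell by 0.71 ± 0.12 and 0.44 ± 0.11 with siRNA5 and siRNA8, per the authors' deposited tables. None of the 3 magnesium transporters of the SLC41 family was called with either siRNA. Of all genes, 46.4% were called with siRNA5 and 41.5% with siRNA8. The phosphate importer SLC20A1 had rebuilt levels of 3025 with siRNA5, 3775 with siRNA8 and 3618 with NTC, and fell by 0.26 ± 0.062 with siRNA5, with an uncalled log2 change of 0.06 ± 0.062 (adjusted p = 0.447) with siRNA8, per the authors' deposited tables.

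**Figure D3:**
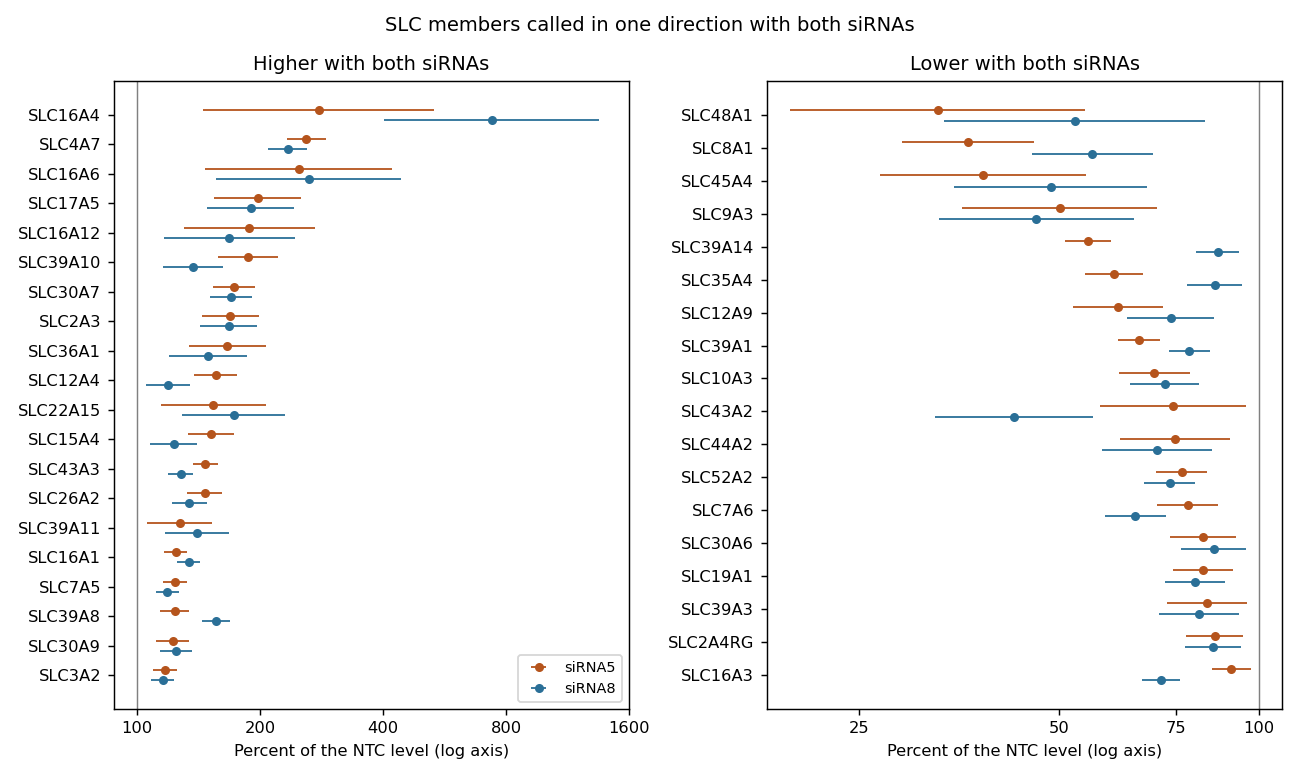
The 20 members called higher (left) and the 18 called lower (right) with both siRNAs, as percent of the NTC level on a log axis, with 95% intervals from the authors' standard errors. SLC4A7 stands at 259.9% with siRNA5 and 234% with siRNA8, and SLC8A1 at 36.5% and 56.1%. The wide interval of SLC16A4 belongs to a mean of 30.6 normalized counts.

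Transporters of vitamins and lipids included genes that fell with both siRNAs and genes with opposite changes. Over the 12 genes, siRNA5 gave 1 higher, 4 lower and 7 uncalled genes (of all genes, 24.4% were higher and 22.0% lower) with a median log2 change of -0.34, and siRNA8 gave 2 higher, 6 lower and 4 uncalled genes (of all genes, 21.0% and 20.5%) with a median of -0.33, per the authors' deposited tables. The riboflavin transporter SLC52A2 had rebuilt levels of 1927 with siRNA5, 1848 with siRNA8 and 2519 with NTC, and fell by 0.39 ± 0.066 and 0.45 ± 0.065 on the log2 scale with siRNA5 and siRNA8, per the authors' deposited tables. The folate carrier SLC19A1 fell by 0.28 ± 0.077 and 0.32 ± 0.077, and SLC44A2, a choline transporter-like protein, by 0.42 ± 0.14 and 0.51 ± 0.14, with siRNA5 and siRNA8, per the authors' deposited tables. SLC44A1, the main choline transporter of the family, had 3644 with siRNA5, 1389 with siRNA8 and 3219 with NTC. It rose by 0.18 ± 0.045 with siRNA5 and fell by 1.21 ± 0.050, with an adjusted p of 4.03e-127, with siRNA8, per the authors' deposited tables. The thiamine transporter SLC19A2 fell by 0.42 ± 0.14 with siRNA5 and rose by 0.37 ± 0.13 with siRNA8, per the authors' deposited tables. The ascorbate transporter SLC23A2 had 297 with siRNA5, 478 with siRNA8 and 284 with NTC, and had an uncalled log2 change of 0.06 ± 0.12 (adjusted p = 0.708) with siRNA5 but rose by 0.75 ± 0.12 with siRNA8, per the authors' deposited tables.

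Of the 8 nucleoside and nucleotide-sugar transporters, 1 was called with siRNA5, per the authors' deposited table, where 46.4% of all genes were. That gene, SLC35A4, had rebuilt levels of 833 with siRNA5, 1182 with siRNA8 and 1378 with NTC, and fell by 0.73 ± 0.074 and 0.22 ± 0.070 on the log2 scale with siRNA5 and siRNA8, per the authors' deposited tables. SLC35A1, which brings CMP-sialic acid into the Golgi, was not called with either siRNA, with log2 changes of 0.14 ± 0.15 and -0.07 ± 0.15, per the authors' deposited tables. The nucleoside transporter SLC29A1 had an uncalled log2 change of -0.12 ± 0.084 (adjusted p = 0.248) with siRNA5 and fell by 0.20 ± 0.083 with siRNA8, per the authors' deposited tables. Over these 8 genes, siRNA5 gave 0 higher, 1 lower and 7 uncalled genes (of all genes, 24.4% were higher and 22.0% lower) with a median log2 change of 0.03, and siRNA8 gave 1 higher, 3 lower and 4 uncalled genes (of all genes, 21.0% and 20.5%) with a median of -0.21, per the authors' deposited tables. Of 15 SLC35 relatives that the rule leaves out (SLC35B to SLC35F), 5 rose and 4 fell with siRNA5, per the authors' deposited table, where 24.4% and 22.0% of all genes did. SLC35D2, one of these, rose by 1.00 ± 0.095 and 0.36 ± 0.099 on the log2 scale with siRNA5 and siRNA8, per the authors' deposited tables. Among the 8 transporters of organic ions and bile acids, SLC10A3 fell by 0.52 ± 0.090 and 0.47 ± 0.089, and SLC22A15 rose by 0.62 ± 0.22 and 0.79 ± 0.21, with siRNA5 and siRNA8, per the authors' deposited tables. The carnitine importer SLC22A5 was not called with either siRNA, with a log2 change of 0.23 ± 0.17 with siRNA5 and one close to 0 with siRNA8, per the authors' deposited tables. The creatine importer SLC6A8, counted with the amino acid and osmolyte transporters, had 1583 with siRNA5, 2455 with siRNA8 and 1518 with NTC, and had an uncalled log2 change of 0.06 ± 0.060 (adjusted p = 0.429) with siRNA5 but rose by 0.69 ± 0.058 with siRNA8, per the authors' deposited tables.

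Of the 8 members that are no transporters, none rose and 2 fell with each siRNA, per the authors' deposited tables. Of all genes, 24.4% rose and 22.0% fell with siRNA5, and 21.0% rose and 20.5% fell with siRNA8. The regulator SLC2A4RG fell by 0.22 ± 0.072 and 0.23 ± 0.072 with siRNA5 and siRNA8, and the scaffold SLC9A3R1 was not called, with log2 changes of 0.04 ± 0.075 and -0.14 ± 0.075, per the authors' deposited tables. The antisense RNA SLC16A1-AS1 fell by 0.82 ± 0.35 with siRNA5, where SLC16A1 rose, and SLC9A3-AS1 fell by 1.07 ± 0.38 with siRNA8, where SLC9A3 fell, per the authors' deposited tables. The libraries were directional per the labels, but for the counting no strand setting is given in the sources used here. Among the genes described above, SLC16A3 overlaps CSNK1D over 6.50% of its exonic bases, SLC37A4 overlaps TRAPPC4 over 13.0% and SLC4A2 overlaps CDK5 over 5.54%, each on the opposite strand. CSNK1D and TRAPPC4 fell with both siRNAs, as did SLC16A3, whereas SLC37A4 fell with siRNA8 and was not called with siRNA5, per the authors' deposited tables. CDK5 fell with both siRNAs, per the authors' deposited tables. In all, 23 members share exonic bases with another listed gene, 6 of them over at least 25% of their own exonic bases in the GENCODE annotation.

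The siRNAs were then compared with each other. In the test of the difference, 29 members were higher and 17 lower with siRNA5 than with siRNA8, where 17.2% and 14.8% of all genes were. The SE of this difference leaves out the covariance from the shared NTC libraries and is an upper bound. SLC44A1 had the smallest adjusted p of all members in this test, 4.34e-92, with a difference of 1.39 ± 0.067 on the log2 scale, or 2.62-fold. SLC37A3, a lysosomal protein, had a difference of 1.38 ± 0.18 (adjusted p = 1.11e-12), and SLC2A6 one of 1.30 ± 0.17 (adjusted p = 2.18e-13). SLC2A13 was higher with siRNA5 by 0.92 ± 0.20 (adjusted p = 4.86e-05). On the other side, SLC1A3, a glutamate importer, was lower with siRNA5 by a difference of -1.71 ± 0.34 (adjusted p = 4.08e-06) and SLC45A3 by -1.22 ± 0.23 (adjusted p = 2.06e-06). SLC7A7, SLC5A3 and SLC23A2 had differences of -0.92 ± 0.22, -0.78 ± 0.14 and -0.69 ± 0.17 (adjusted p = 0.000141, 2.74e-07 and 0.000320). SLC6A8 was lower with siRNA5 by a difference of -0.63 ± 0.084 (adjusted p = 1.37e-12).

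**Figure D4:**
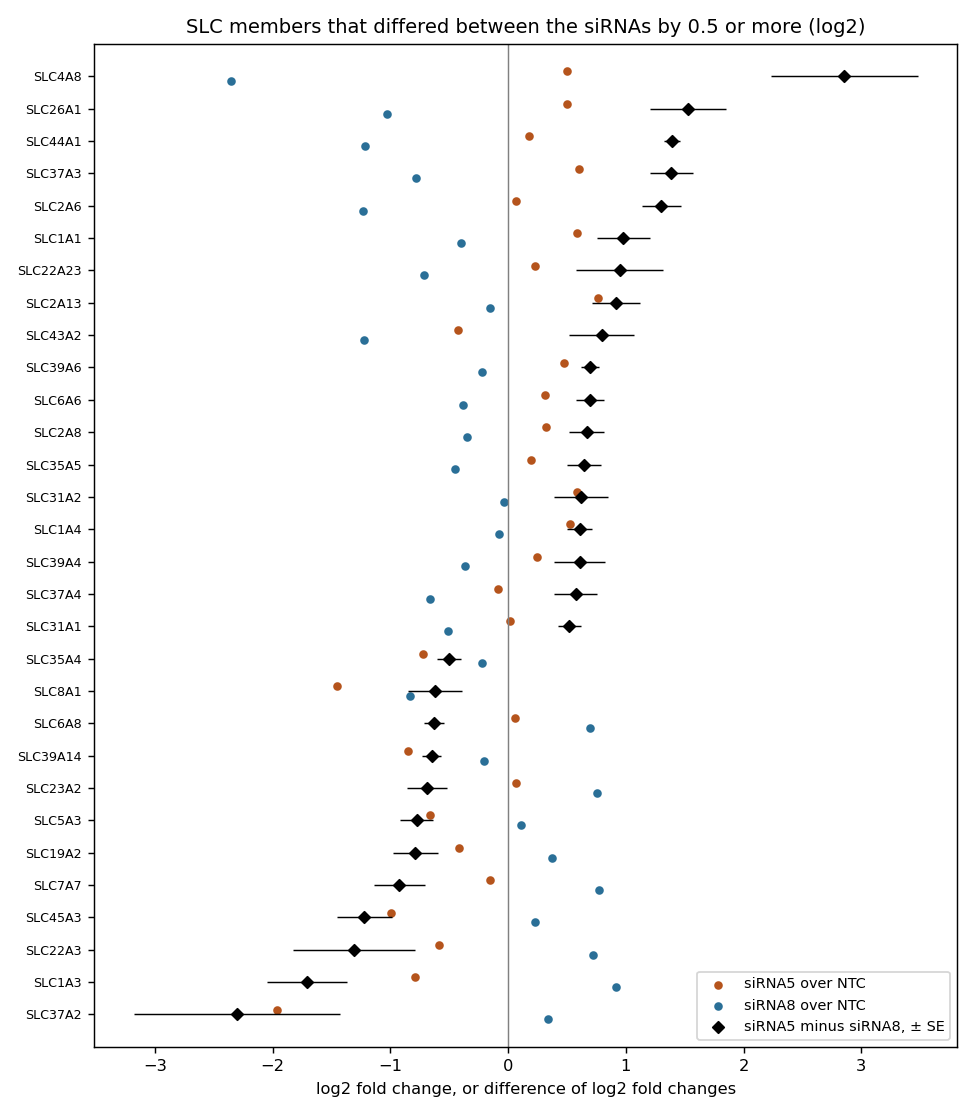
The 30 members called in the test of siRNA5 against siRNA8 with a difference of at least 0.5 in size, in order of the log2 difference (black diamonds, with SE bars). Orange and blue points give the log2 fold change over NTC with siRNA5 and siRNA8. SLC44A1 has a positive change with siRNA5 and a change of -1.21 ± 0.050 with siRNA8, whereas SLC1A3 lies on the opposite side with -0.80 ± 0.26 and 0.91 ± 0.22.

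For each siRNA, genes that hold a certain short sequence in the 3' UTR had lower log2 changes. An siRNA can lower transcripts other than its target when their 3' UTR pairs with the seed, a short stretch near the 5' end of its guide strand. The siRNA sequences are not given in the sources used here. Among 8855 genes outside the SLC families with a mean of at least 100, all 16060 heptamers present in at least 50 of their 3' UTRs were ranked on the transcript strand by a standardised mean: the mean log2 change of the genes holding them, after a fit on 3' UTR length, over the SD of all genes divided by the root of the number holding it. The lowest heptamer was AACGCTG with siRNA5, at -10.99, and ACTAGAA with siRNA8, at -12.49. The next values were -10.70 with siRNA5, for a heptamer of other letters held by 1722 genes, and -12.48 with siRNA8, for one that overlaps ACTAGAA by all but 1 base, so the pick was narrow in both. Outside the SLC families, genes holding AACGCTG had a median log2 change of -0.17 with siRNA5, against 0.03 for genes without it, and genes holding ACTAGAA had a median of -0.10 with siRNA8, against 0.03 for those without it, per the authors' deposited tables. These heptamers were picked for those values, which are given as a description. ALYREF itself holds each heptamer once, in its coding sequence. Both sites are shown because ALYREF is the intended target of both siRNAs. They lie at chr17:81889303-81889309 (AACGCTG) and chr17:81888393-81888399 (ACTAGAA), on the minus strand of GRCh38 in the GENCODE annotation, and the heptamer is in capitals:
ALYREF, siRNA5 heptamer: ctgaatttggAACGCTGaagaaggcgg
ALYREF, siRNA8 heptamer: aggtggcatgACTAGAAaccgtggcgc

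Of the 130 members with an annotated 3' UTR of at least 50 bases, 16 hold ACTAGAA, a share of 12.3%, against 11.1% of all 10718 genes with such a 3' UTR. With siRNA8, 5 of these 16 members fell and 2 rose, with a median log2 change of -0.15, and 34 of the 114 members without it fell and 27 rose, with a median of -0.02, per the authors' deposited tables. The share that fell was 31.3% with the heptamer and 29.8% without it. The scan outside the SLC families covered 8855 genes, none of them under a mean of 100. Of these, 38.5% with the heptamer and 20.4% without it fell with siRNA8, per the authors' deposited table. ACTAGAA was picked for the low log2 changes of these same genes, so their gap is a description. The 130 members include genes under that mean, so the shares of members and of scanned genes are not on the same footing. With siRNA5 the same 16 members had a median log2 change of 0.17, with 5 higher and 2 lower, per the authors' deposited tables. Members with ACTAGAA that fell with siRNA8 included SLC44A1, which holds it 3 times, SLC37A3, SLC35A5 and SLC1A1. SLC35A5 had an uncalled log2 change of 0.19 ± 0.10 (adjusted p = 0.109) with siRNA5 and fell by 0.45 ± 0.11 with siRNA8, and SLC1A1, a glutamate and cysteine importer, rose by 0.58 ± 0.15 with siRNA5 and fell by 0.40 ± 0.17 with siRNA8, per the authors' deposited tables. SLC26A2 and SLC35A3, which brings UDP-N-acetylglucosamine into the Golgi, hold the heptamer and rose with siRNA8, SLC35A3 by 0.35 ± 0.11, per the authors' deposited table. SLC2A6, SLC26A1 and SLC4A8, with some of the deepest falls with siRNA8, do not have these letters in the 3' UTR of the annotated transcript. The sites of these members, then of those that rose, are shown with 10 bases on each side and the heptamer in capitals, at chr9:105391299-105391305, chr9:105395845-105395851 and chr9:105397207-105397213 (SLC44A1, plus strand), chr7:140334459-140334465 (SLC37A3, minus), chr3:112585473-112585479 (SLC35A5, plus), chr9:4586382-4586388 (SLC1A1, plus), chr5:149984239-149984245 (SLC26A2, plus) and chr1:100035556-100035562 (SLC35A3, plus) of GRCh38:
SLC44A1, site 1: atcatttgcaACTAGAActgtaatcag
SLC44A1, site 2: tctagttgccACTAGAAaatgtgagct
SLC44A1, site 3: agaaatacgaACTAGAAagaaaagtgc
SLC37A3: tcagcagaagACTAGAAttagagaaaa
SLC35A5: tgatgggtccACTAGAAgcccaaactt
SLC1A1: tctaaggagcACTAGAAtgagaaatca
SLC26A2: ttaagatgtcACTAGAAtttacatttc
SLC35A3: tgtgtcccccACTAGAAtgtaagctct

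AACGCTG is rarer, present in 2.90% of all 10718 genes and in 5 of the 130 members. Of the 5, SLC39A14 fell with siRNA5, SLC4A7 rose, and SLC7A1, SLC36A4 and SLC22A23 were not called, per the authors' deposited table. SLC4A7 holds the heptamer at chr3:27373520-27373526 (GRCh38, minus strand), shown because this gene rose with siRNA5 while holding it:
SLC4A7: ccattgatatAACGCTGtaattaaaaa
The part of either heptamer in these changes was not tested, and a match is no proof of a site.

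**Figure D5:**
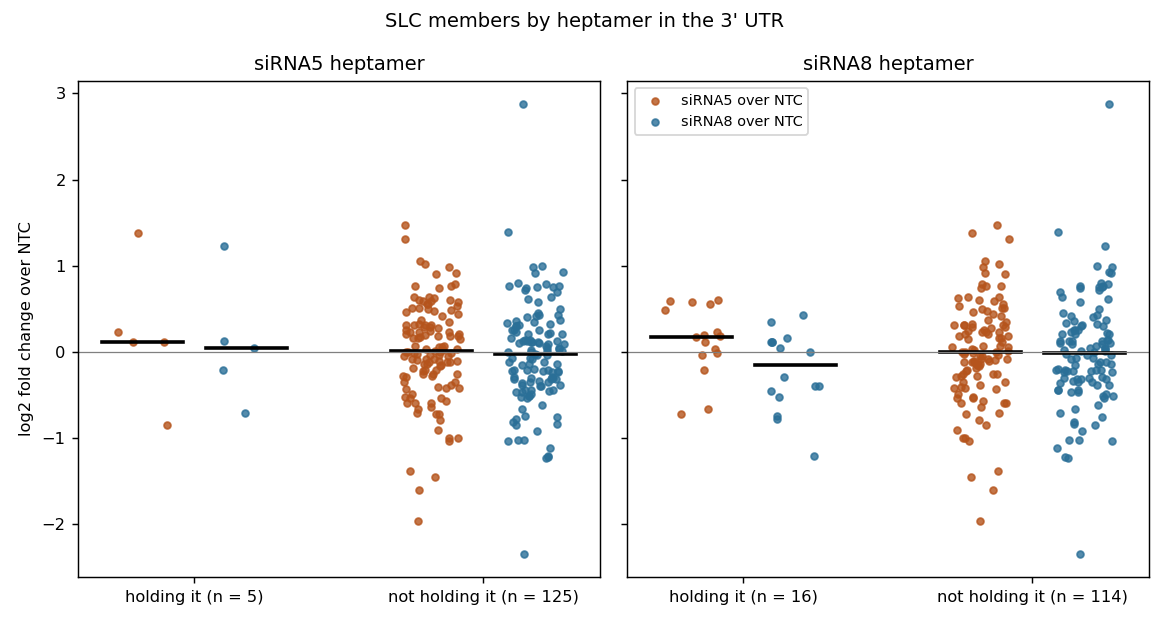
Log2 fold change over NTC of the 130 members with an annotated 3' UTR, split by whether the 3' UTR holds the heptamer picked for siRNA5 (left) or for siRNA8 (right), with orange for siRNA5, blue for siRNA8 and black bars for medians. The 16 members holding the siRNA8 heptamer have a median of 0.17 with siRNA5 and -0.15 with siRNA8, and the points of members with and without it overlap.

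Members that rose had longer 3' UTRs than members that fell, as did genes in general. The median annotated 3' UTR was 2127 bases for the 20 members higher with both siRNAs and 972 bases for the 18 lower with both. Over all genes the medians were 1697 bases for the 1117 genes higher with both and 1155 bases for the 956 lower with both. Over all 130 members the median was 1635 bases, against 1207 for all genes. These lengths are from 1 annotated transcript per gene, and their part in the changes was not tested.

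Pumps, enzymes and regulators that work with SLC transporters, with SLC35 and SLCO transporters outside the rule, were read from a list of 51, of which 45 had rows. The 15 SLC35 and 4 SLCO genes are themselves transporters and enter the counts. Over these 45, siRNA5 gave 16 higher, 7 lower and 22 uncalled genes (of all genes, 24.4% were higher and 22.0% lower) with a median log2 change of 0.05, and siRNA8 gave 18 higher, 7 lower and 20 uncalled genes (of all genes, 21.0% and 20.5%) with a median of 0.18, per the authors' deposited tables. The 3 carbonic anhydrases of this list with rows, which supply bicarbonate and protons, were all called with both siRNAs. Of them, 2 were higher with both and 1 changed in opposite directions, per the authors' deposited tables, where 9.85% and 5.87% of all genes did. Carbonic anhydrases outside the list were not looked up. CA12, the membrane-bound enzyme of the cell surface, had rebuilt levels of 8346 with siRNA5, 5992 with siRNA8 and 4443 with NTC, and rose by 0.91 ± 0.055 and 0.43 ± 0.055 on the log2 scale with siRNA5 and siRNA8, per the authors' deposited tables. The cytosolic CA2 rose by 0.32 ± 0.084 with siRNA5 and fell by 0.22 ± 0.086 with siRNA8, per the authors' deposited tables. ATP1B1, a subunit of the sodium-potassium pump, rose by 0.41 ± 0.066 with siRNA5 and fell by 0.33 ± 0.068 with siRNA8, per the authors' deposited tables. BSG, the chaperone that brings SLC16A1 and SLC16A3 to the surface, fell by 0.19 ± 0.041 with siRNA5 and had an uncalled log2 change of -0.01 ± 0.041 (adjusted p = 0.909) with siRNA8, per the authors' deposited tables. SGK1, a kinase that raises the surface level of many transporters, rose by 0.76 ± 0.090 and 0.53 ± 0.091, and NEDD4L, a ubiquitin ligase that removes them, by 0.49 ± 0.073 and 0.37 ± 0.073, with siRNA5 and siRNA8, per the authors' deposited tables. MTF1, the zinc-sensing activator of SLC30A1 and the metallothioneins, rose by 0.44 ± 0.10 and 0.59 ± 0.098 with siRNA5 and siRNA8, per the authors' deposited tables. Of the 4 metallothioneins of this list with rows, MT1X rose by 0.71 ± 0.21 with siRNA8 and the others were not called with either siRNA, per the authors' deposited tables.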

How the data were processed

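Polyadenylated RNA of 6 libraries (2 per siRNA group) was read as paired ends of 42 bases, per the labels. The submitters' processing notes name STAR, Picard, HTSeq and DESeq2 on hg19. The deposited tables hold the authors' signal, a mean normalized count per gene, which was identical in both tables, with log2 fold changes and their SE as log2 values, per the file headers. The Wald score and the p-values and adjusted p-values are the authors' too, per the file headers, and the adjusted p-values were recomputed as Benjamini-Hochberg values over all rows. No depth per library is given in the sources used here. Reads without a feature and ambiguous reads, 6.23% and 1.62% of the sum of means, were left out.

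The planned test on counts could not be run without values per library, so the authors' DESeq2 adjusted p-values stand, with 0.05 as threshold. Group levels were rebuilt from mean and fold changes. Across 9357 genes with a mean of at least 100, differences between the squared SEs of the siRNAs followed those the rebuilt levels predict (Pearson's r = 0.973 across genes, slope 1.17), and genes are not independent replicates. For siRNA5 against siRNA8, the log2 changes were subtracted and divided by the square root of both squared SEs added up, with a two-sided normal p and Benjamini-Hochberg adjustment over all 11679 genes, tested on simulated data. Genes were named by rule: 18 transporters of core substrates, the 10 largest called rises and falls per comparison and with both siRNAs (mean at least 100), SLC4A7 and the 10 most abundant members. This took 60 genes, and the others named were chosen as examples after their values were seen. The members, lists and rules were chosen with earlier results of these data known. Transcripts and 3' UTRs came from GENCODE release 29 (principal transcript, GRCh38), whose coordinates were not mixed with hg19. Some genes that the rule takes are not reported here. Python 3.11.15, scipy 1.17.1 and pandas 2.3.3 were used.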

Additional observations from a re-analysis of the deposited data

Results flagged for a closer look

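For 9 members, the log2 changes with siRNA5 and siRNA8 were both called in the authors' deposited tables, with opposite signs. These are 6.62% of the members, against 5.87% of all genes. Each difference also passed the test of siRNA5 against siRNA8. That largely follows from picking genes called in opposite directions, so the adjusted p-values below are no added support. Higher with siRNA5 and lower with siRNA8 were SLC26A1, with a log2 difference (± SE) of 1.53 ± 0.32 (adjusted p = 1.96e-05), SLC44A1, with 1.39 ± 0.067 (adjusted p = 4.34e-92), and SLC37A3, with 1.38 ± 0.18 (adjusted p = 1.11e-12). So were SLC1A1, with 0.98 ± 0.23 (adjusted p = 0.000116), SLC39A6, with 0.69 ± 0.079 (adjusted p = 5.67e-17), SLC6A6, the taurine importer, with 0.69 ± 0.12 (adjusted p = 1e-07), and SLC2A8, with 0.67 ± 0.15 (adjusted p = 7.04e-05). Lower with siRNA5 and higher with siRNA8 were SLC19A2, with -0.79 ± 0.19 (adjusted p = 0.000283), and SLC1A3, with -1.71 ± 0.34 (adjusted p = 4.08e-06). SLC6A6 had rebuilt levels of 1583 with siRNA5, 979.9 with siRNA8 and 1278 with NTC, and SLC1A3 had 55.0 with siRNA5, 179.8 with siRNA8 and 95.4 with NTC. Of the 9, SLC44A1, SLC37A3 and SLC1A1 hold the heptamer ACTAGAA in the 3' UTR, and its part in the differences was not tested.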

How the results depend on the processing

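Of 960 recomputed values of named genes, whose log2 changes stay as deposited in every setting except centring, 814 kept their side of the threshold, 138 lost the call (61 with Bonferroni adjustment, 57 when tested against a log2 change of 0.2 and 20 at an adjusted p under 0.01), and 8 gained it. With Bonferroni adjustment, 20 members were higher and 10 lower with siRNA5, 14 and 13 with siRNA8, 11 and 6 with siRNA5 against siRNA8, and 9 and 4 with both siRNAs. Tested against a log2 change of 0.2 in either direction, the counts were 22 and 13 with siRNA5, 16 and 17 with siRNA8, 15 and 9 with siRNA5 against siRNA8, and 8 and 6 with both siRNAs. At an adjusted p under 0.01, 18 members were higher with siRNA5 than with siRNA8, and the other counts stayed within 1.5 times of those reported. Each of these settings asks for more evidence by construction. Restricting the test to genes with a mean of at least 100, or centring on the median of all genes, kept all counts within 1.5 times. With the shared NTC variance taken out of the SE, 37 members were higher and 23 lower with siRNA5 than with siRNA8. The counts under all these settings have no share of all genes beside them and describe the members alone. No paired analysis was possible because the deposited tables hold no values per library. For the same reason, leaving out a replicate and a count test of other normalization were not run, and it is not known whether 1 library decides a value.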
